A study of Saccharomyces cerevisiae with 6 samples.

Results

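The 35 genes described here are GCN4 and 34 enzyme genes of amino acid synthesis in the budding yeast Saccharomyces cerevisiae, chosen by name and sorted into 5 pathways: arginine (5 genes), lysine (6), histidine (6), the branched-chain amino acids (9) and the aromatic amino acids (8). All 35 had 1 probe set each among the 5498 tested, which stand for 5449 genes, and 27 had a deletion strain among the 4303 strains read on the barcode arrays. Strains for ARG8, LYS2, LEU1, ILV2, ILV3, ILV5, BAT1 and ARO2 were not analysed here. Expression was measured in log-phase cells in synthetic complete medium, with 2 arrays of the haploid strain BY4741 labelled wild type and 2 arrays of the same strain background lacking FUN30, the gene of a chromatin remodelling ATPase. In the second experiment a pooled library of homozygous diploid deletion mutants received a linear URA3 cassette that replaces ISU1, a linear URA3 cassette that replaces SOD2, or the circular plasmid pRS416 as control, and transformants grew for 2 days at 30°C on plates without uracil. Each cassette had 1 array, on which the barcodes of the cassette pool and of the plasmid pool carried different dyes. The labels do not say whether replicate arrays came from separate cultures or whether the deletion is more than 1 isolate, so p-values measure the spread between these arrays.

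Gcn4 is a basic leucine zipper activator that binds the promoters of most amino acid synthesis genes in yeast when cells are starved for an amino acid, a response called general amino acid control. Its own synthesis is set mainly by translation, through short open reading frames in the leader of its mRNA, so the level of GCN4 mRNA is a poor guide to the amount of Gcn4 protein. Synthetic complete medium supplies amino acids, and in it the biosynthetic genes are expressed without the full induction seen on starvation.

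The labels were checked first. FUN30 had log2 signals of 9.63 and 9.40 in the wild type and of 3.37 and 3.55 in the deletion. The deletion values lay below the background level of 5.24. Under that level lay the mean signals of 95% of the probe sets annotated to a gene outside the RefSeq table of this yeast. Of the 4 genes that BY4741 lacks wholly or in part, LEU2 (5.04 to 5.14) and URA3 (4.07 to 4.22) lay below background on all 4 arrays, and HIS3, whose allele in this strain is a partial deletion, gave 12.68 to 13.09. MET17, which makes homocysteine from sulphide, gave 5.49 and 5.47 in the wild type but 13.05 and 12.94 in the deletion, so besides FUN30 the genotypes differed in a marker of amino acid synthesis. LYS2, which is intact in BY4741 and missing from its mating partner strain BY4742, was present on all 4 arrays (11.76 to 11.93). The a-specific pheromone gene MFA1 was bright on all 4 arrays (13.07 to 13.26). The a-specific genes MFA2, STE2, STE6, BAR1 and AGA2 also lay above background on all 4. Each a-specific gene was lower by mean in the deletion, with no adjusted p under 0.05 in limma. The differences were −0.08 (MFA1), −0.21 (MFA2), −0.23 (STE2), −0.06 (STE6), −0.36 (BAR1) and −0.25 (AGA2). The alpha-specific gene MF(ALPHA)1 lay below background on all 4 arrays (4.26 to 4.91). The other 3 alpha-specific genes lay above background on all 4 arrays, with MF(ALPHA)2 at 5.81 to 6.33, STE3 at 7.78 to 8.33 and SAG1 at 9.10 to 9.41. Without a call in limma, MF(ALPHA)1 differed by −0.34, MF(ALPHA)2 by 0.27 and SAG1 by 0.24. STE3 (0.48 ± 0.07 SE, adjusted p = 0.0343) and the meiosis kinase gene IME2 (0.62 ± 0.07 SE, adjusted p = 0.0222) were the other 2 of the 18 strain markers that rose in the limma fit, and both calls were lost without wild type replicate 1 (adjusted p = 0.110 and 0.0786, limma). That of STE3 was also lost without fun30 deletion replicate 2 (adjusted p = 0.103, limma). Among the other markers of diploid or sporulating cells, IME1 (0.20) and SPO11 (0.04) were higher by mean and SPS4 lower (−0.27). None of these had an adjusted p under 0.05 in limma. The part of these strain differences in the results below was not tested.

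None of the 35 genes passed the test in the fun30 deletion. The test was limma with Benjamini-Hochberg adjustment over all 5498 probe sets, and it called 2.66% of them at an adjusted p under 0.05 (1.36% higher and 1.29% lower), beside 0 of the 35 genes in either direction. At an unadjusted p under 0.05, limma had 5 of the 35 genes lower and 0 higher, beside 22.2% of all probe sets in either direction and 12.5% lower. LEU9, ILV2 and ILV3 of the branched-chain pathway, HIS6 and ARO2 were these 5. Every one of the 35 measured differences had a 95% interval inside 2-fold in both directions. The outermost bounds were −0.82 (LEU9) and 0.43 (ARG3) on the log2 scale, without adjustment for the number of genes. The 35 genes were well measured, with log2 signals from 8.98 to 14.38. The brightest of them approached the top signals of the arrays, which were 15.18 to 15.21, and whether differences are compressed there was not tested.

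The small differences ran mostly one way. The mean was lower in the deletion for 31 of the 35 genes, with a median difference of −0.11 (log2), beside 50.7% lower and a median of −0.0030 over all tested probe sets. Both deletion arrays lay below both wild-type arrays for 17 of the 35 genes, beside 30.0% of all probe sets, and above both for 2 genes, beside 28.5%. The wild-type arrays differed from each other by more than this. Replicate 1 was above replicate 2 for 34 of the 35 genes, with a median of 0.16, beside 53.7% and 0.014 over all probe sets. The deletion arrays differed by a median of 0.017. Against wild type replicate 1 the median of the 35 genes was −0.18 and −0.21 for deletion replicates 1 and 2, with 32 genes lower in each. Against wild type replicate 2 it was −0.053 and −0.017, with 23 and 21 genes lower. The median over the 35 genes was thus −0.031 without wild type replicate 1 and −0.19 without wild type replicate 2, so a single wild-type array set most of its size.

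**Figure D1:**
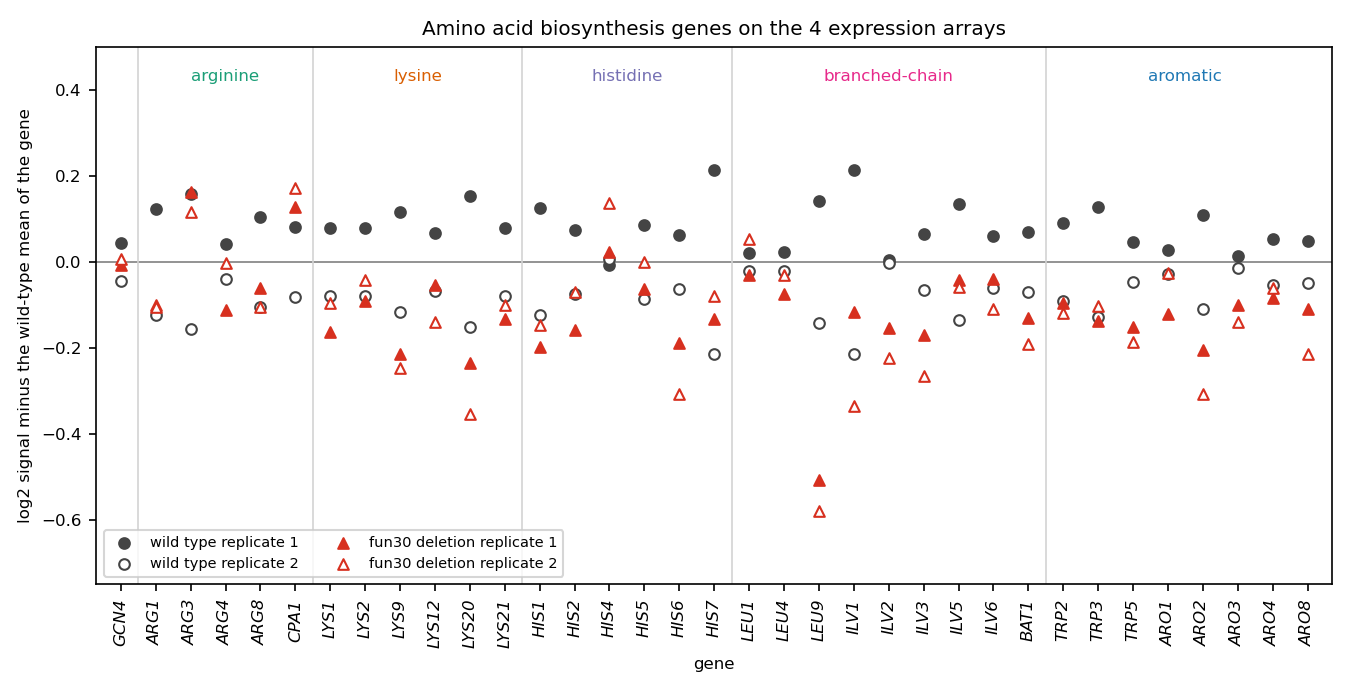
Log2 signal of each of the 35 genes on each expression array, minus the gene's mean over the 2 wild-type arrays, by pathway; circles are wild type, triangles the fun30 deletion, filled for replicate 1 and open for replicate 2. The filled circle is above the open circle for 34 of 35 genes, and LEU9 is the gene whose triangles lie farthest below its circles.

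**Figure D2:**
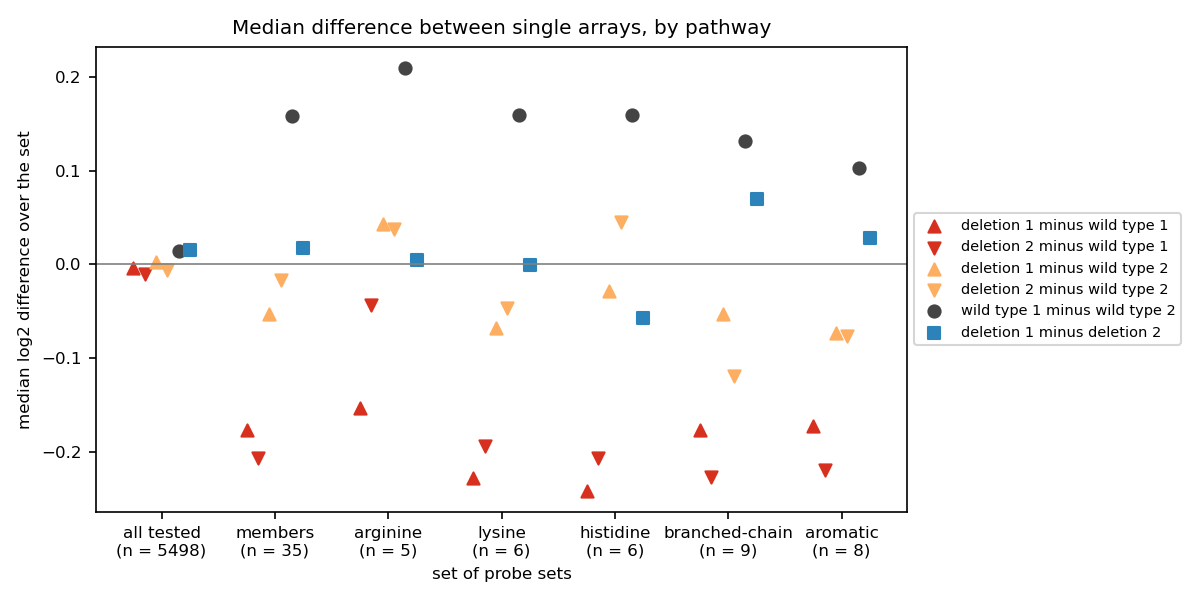
Median log2 difference between single arrays over all tested probe sets, over the 35 genes and over each pathway, with the number of probe sets under each name. For the 35 genes the medians against wild type replicate 1 are −0.18 and −0.21, those against wild type replicate 2 are −0.053 and −0.017, and the 2 wild-type arrays differ by 0.16.

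GCN4 (YEL009C) itself was level. Its log2 signals were 14.23 and 14.25 in the deletion and 14.29 and 14.20 in the wild type, so that the deletion arrays lay between the wild-type arrays. The difference was −0.00065 ± 0.067 (SE, n = 2 each), with a 95% interval from −0.17 to 0.17 and an adjusted p of 0.995 in limma.

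The arginine genes showed no common direction. ARG1, argininosuccinate synthetase, gave 13.64 and 13.63 in the deletion and 13.86 and 13.61 in the wild type, a difference of −0.10. ARG4, the lyase of the last step, and ARG8, acetylornithine aminotransferase, were lower by mean as well (−0.06 and −0.08). These 3 genes overlapped between genotypes. CPA1, the small subunit of the arginine-specific carbamoyl phosphate synthetase, was higher on both deletion arrays, with 12.17 and 12.21 against 12.12 and 11.96 (0.15 ± 0.08 SE, adjusted p = 0.337, limma). ARG3, ornithine carbamoyltransferase, had the dimmest signals of the 35, with 9.30 and 9.26 in the deletion and 9.30 and 8.98 in the wild type. Its difference of 0.14 was below the gap of 0.31 between its own wild-type arrays. The median of the 5 genes was −0.06. It was 0.021 without wild type replicate 1 and −0.098 without wild type replicate 2. The gap between the wild-type arrays had its widest pathway median here, at 0.21.

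The mean of each of the 6 lysine genes was lower in the deletion, and in 4 of them both deletion arrays lay below both wild-type arrays, beside 30.0% of all probe sets. Their median was −0.12, and it was −0.044 without wild type replicate 1 and −0.20 without wild type replicate 2. LYS20, a homocitrate synthase of the first step, gave 12.19 and 12.07 in the deletion and 12.58 and 12.27 in the wild type. It was lower by mean (−0.29 ± 0.12 SE, adjusted p = 0.231, limma), and its wild-type arrays differed by 0.30. LYS21, the second homocitrate synthase, differed by −0.12 with signals of 12.15 and 12.18 against 12.36 and 12.20. LYS9, the saccharopine dehydrogenase that forms saccharopine with glutamate, gave 12.14 and 12.11 against 12.47 and 12.24 (−0.23 ± 0.10 SE, adjusted p = 0.241, limma). Both deletion arrays were the lower ones for these 3 genes and for LYS1, the saccharopine dehydrogenase of the last step (−0.13). LYS12, homoisocitrate dehydrogenase (−0.10), and LYS2, the aminoadipate reductase (−0.07), overlapped.

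In the histidine pathway 5 of 6 genes were lower by mean. The median was −0.11, and it was 0.0071 without wild type replicate 1 and −0.24 without wild type replicate 2. HIS6, the isomerase of the fourth step, gave 9.89 and 9.77 in the deletion and 10.14 and 10.02 in the wild type (−0.25 ± 0.08 SE, adjusted p = 0.177, limma). HIS1, the ATP phosphoribosyltransferase that commits the pathway, gave 13.82 and 13.87 against 14.14 and 13.89, a difference of −0.17. The deletion arrays were the lower ones for both of these genes. HIS7, imidazole glycerol phosphate synthase, had the widest wild-type gap of the 35 genes, with 11.82 and 11.39 around deletion values of 11.48 and 11.53. HIS2, histidinol phosphatase (−0.11), and HIS5, histidinol-phosphate aminotransferase (−0.03), overlapped as well. HIS4, a multifunctional enzyme and the classic reporter of Gcn4 activity, was the exception in direction, with 14.26 and 14.37 in the deletion above 14.23 and 14.24 in the wild type (0.08 ± 0.07 SE, adjusted p = 0.546, limma).

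The branched-chain pathway held the gene with the widest difference of the 35. LEU9 (YOR108W), an alpha-isopropylmalate synthase that starts leucine synthesis, gave 11.00 and 10.93 in the deletion and 11.65 and 11.36 in the wild type. Both deletion arrays were the lower ones, while the wild-type arrays differed by 0.28. The mean was 1.46-fold lower (−0.54 ± 0.11 SE, n = 2 each; 95% interval −0.82 to −0.27), and its adjusted p of 0.0814 in limma missed the threshold. Leaving out fun30 deletion replicate 1 or wild type replicate 2 gave adjusted p values of 0.0339 and 0.0251, and leaving out wild type replicate 1 gave 0.138 with a difference of −0.40. LEU4, which encodes the main alpha-isopropylmalate synthase and is the paralogue of LEU9, gave 13.74 and 13.79 against 13.84 and 13.80, a difference of −0.05 ± 0.06 (SE) without overlap. The difference between the responses of the paralogues was not tested.

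Of the other branched-chain genes, ILV2, the catalytic subunit of acetolactate synthase, was the tightest in the wild type, with 12.95 and 12.94 above deletion values of 12.79 and 12.72 (−0.19 ± 0.06 SE, adjusted p = 0.188, limma). ILV3, dihydroxyacid dehydratase, gave 13.54 and 13.44 against 13.78 and 13.64 (−0.22 ± 0.08 SE, adjusted p = 0.203, limma). BAT1, the mitochondrial branched-chain aminotransferase, differed by −0.16, and in all 3 genes both deletion arrays were the lower ones. ILV1, threonine deaminase, had a mean difference of −0.23 but overlapped, since its wild-type arrays stood at 12.78 and 12.35 and the deletion arrays at 12.45 and 12.23. ILV5, the reductoisomerase (−0.05), ILV6, the regulatory subunit of acetolactate synthase (−0.07), and LEU1, isopropylmalate isomerase (0.01), differed by less than 0.1. The median of the 9 genes was −0.16, and it was −0.031 without wild type replicate 1 and −0.19 without wild type replicate 2.

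The 8 aromatic genes were all lower by mean, with a median of −0.12, and in 6 of them (TRP2, TRP5, ARO2, ARO3, ARO4 and ARO8) both deletion arrays lay below both wild-type arrays, beside 30.0% of all probe sets. ARO2, chorismate synthase, had the widest difference, with 12.97 and 12.87 in the deletion and 13.29 and 13.07 in the wild type (−0.26 ± 0.10 SE, adjusted p = 0.212, limma). TRP5, tryptophan synthase, gave 13.45 and 13.42 against 13.65 and 13.56 (−0.17 ± 0.07 SE, adjusted p = 0.233, limma). ARO8, an aromatic aminotransferase, differed by −0.16. ARO3 and ARO4 are the paralogous DAHP synthases of the first step, inhibited by phenylalanine and by tyrosine, and differed by −0.12 ± 0.06 and −0.07 ± 0.07 (SE). TRP2, anthranilate synthase, differed by −0.11. TRP3, its partner subunit (−0.12), and ARO1, the pentafunctional enzyme of the shikimate pathway (−0.07), overlapped. Against wild type replicate 2 alone, all 8 genes were lower on deletion replicate 1 and 6 on deletion replicate 2, with medians of −0.07 and −0.08. Over all probe sets 48.9% and 51.8% were lower in these comparisons. In the same comparisons 5 and 5 of the 6 lysine genes were lower, and 6 and 7 of the 9 branched-chain genes. Of the 5 arginine genes 1 and 1 were lower, and of the 6 histidine genes 3 and 2.

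Of the 26 other amino acid synthesis genes with a probe set, LYS4, homoaconitase of the lysine pathway, was the 1 that rose (0.65 ± 0.10 SE, adjusted p = 0.0407, limma), and none fell. Over all probe sets 1.36% rose and 1.29% fell. The median of the 26 genes was −0.08, with 18 lower, beside 50.7% of all probe sets. For deletion replicates 1 and 2 this median was −0.19 and −0.19 against wild type replicate 1, and −0.00071 and 0.026 against wild type replicate 2. LYS4 gave 11.28 and 11.25 in the deletion and 10.74 and 10.49 in the wild type, against the direction of the 6 lysine genes above. LYS5, also a lysine gene of this list, was higher on both deletion arrays without a call (0.23, adjusted p = 0.155, limma). BAT2, the cytosolic branched-chain aminotransferase, had the largest difference downwards at −0.33 ± 0.07 (SE, adjusted p = 0.0850, limma). Among 13 genes that act on the translation of GCN4, GCD6, the catalytic subunit of the exchange factor eIF2B, was the 1 that rose, beside 1.36% of all probe sets. It went from 11.16 and 10.99 to 11.84 and 11.76 (0.73 ± 0.08 SE, adjusted p = 0.0220, limma). GCD14, a subunit of a tRNA methyltransferase, was next in size and did not pass (−0.48, adjusted p = 0.108, limma). GCN2, the kinase that senses uncharged tRNA, differed by −0.03. LYS4 and GCD6 lie in a stretch of chromosome IV from GCD6 to EXG2. All 47 tested probe sets of this stretch were higher in the deletion, with a median of 0.85. Of them 39 passed, out of 75 called higher among all probe sets. None of the 35 genes lies in this stretch. None of the 6 genes for the turnover of Gcn4 protein or of the 9 pathway regulators passed. At an unadjusted p under 0.05, limma had 0 of these 6 genes, and among the 9 it had MCM1 (−0.26), beside 22.2% of all probe sets. The largest differences were 0.17 for the kinase gene PHO85 and 0.10 for PCL5, a cyclin of Pho85, in the first list and −0.31 for ARG80 and −0.26 for MCM1 in the second.

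The barcode arrays asked how the loss of each gene bears on integration of a linear cassette through its homologous ends, relative to uptake of a circular plasmid. Values are log2 channel ratios minus the array median, averaged over the barcode features of a strain. The SD of a feature was 0.28 on each array. The labels do not name the pool in the numerator, and a common direction of the arrays was inferred from their correlation over strains. For orientation, strains lacking the recombination genes RAD54 (1.88 and 2.28), RAD55 (2.32 and 2.08) and RAD57 (2.21 and 3.20) lay above the median on the ISU1 and SOD2 arrays, and the fun30 strain lay below it (−1.43 and −1.20). The rad54 and fun30 strains had 1 feature on each array, and the rad55 strain had 1 on the SOD2 array. With 1 array for each cassette there is no test, and a strain was counted when it passed 2-fold in the same direction on both arrays. Both arrays may rest on the same plasmid pool.

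Most strains lacking an amino acid synthesis gene lay near the median. Of 27 strains, 2 passed 2-fold above the median on both arrays, beside 1.91% of all strains, and 0 passed below, beside 0.638%. The strains that passed lacked LEU9 and TRP5. The median of the 27 strains was 0.16 on the ISU1 array, with 19 above the array median, and 0.01 on the SOD2 array, with 15 above it. On the single arrays, 2 strains passed 2-fold above the median on the ISU1 array, beside 3.23% of all strains, and 3 on the SOD2 array, beside 4.73%. Below the median, 0 of the 27 strains passed on the ISU1 array, beside 1.81% of all strains, and 0 on the SOD2 array, beside 1.35%. With the limit at 1.5-fold, leu9 and trp5 stayed the 2 strains past it above on both arrays, beside 4.86% of all strains, and 0 passed below, beside 2.34%.

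**Figure D3:**
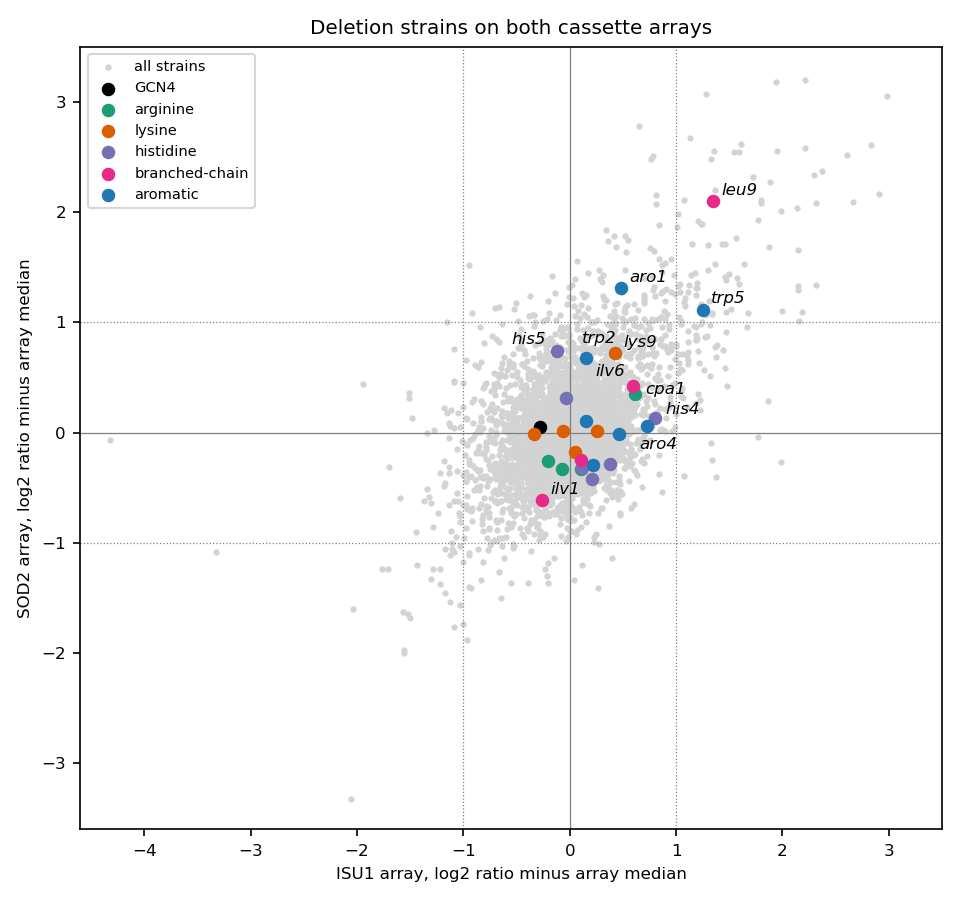
Log2 channel ratio minus the array median for every deletion strain, on the ISU1 array (x axis) and the SOD2 array (y axis); coloured points are the 27 strains lacking an amino acid synthesis gene, by pathway, grey points all strains, and dotted lines mark 2-fold. Only leu9 (1.35 and 2.10) and trp5 (1.25 and 1.12) of the coloured points lie past 2-fold on both arrays.

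The gcn4 strain was unremarkable. Its features read −0.40 and −0.17 on the ISU1 array (mean −0.28) and 0.01 and 0.09 on the SOD2 array (mean 0.05), so it lay on opposite sides of the median by no more than the SD of a feature.

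The leu9 strain stood highest. Its features read 1.52 and 1.17 on the ISU1 array and 1.98 and 2.22 on the SOD2 array, with means of 1.35 (2.54-fold) and 2.10 (4.29-fold), and by the lower of its 2 values it ranked 36 of the 4235 strains with values on both arrays. All 4 readings of this strain were past 2-fold. The leu4 strain, which lacks the paralogue, lay at 0.10 and −0.25, within the bulk of strains. Strains for neighbouring genes were chosen after their values were seen. Those lacking the neighbours of LEU9, RGS2 (−0.09 and 0.67) and INP53 (−0.27 and −0.25), did not pass on either array. LEU9 therefore had the widest expression difference of the 35 genes and its deletion the highest barcode ratio of the 27 strains, in experiments that share no sample, and a link between them was not tested.

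The trp5 strain lay at 1.25 (2.38-fold) on the ISU1 array and 1.12 (2.17-fold) on the SOD2 array. Its features disagreed, with 1.67 and 0.83 on the ISU1 array and 0.70 and 1.53 on the SOD2 array. The feature that read higher on one array read lower on the other, and by the rule that every feature must pass 2-fold the strain was not counted. The strain lacking PGD1, a Mediator subunit gene next to TRP5, lay at 1.11 and 0.66, and that lacking CWH41 on the other side at 0.65 and −0.06.

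The other aromatic strains were above the median on the ISU1 array in each case and mixed on the SOD2 array. The aro1 strain lay at 0.48 and 1.31, the latter from 1 feature. The trp2 strain lay at 0.16 and 0.68 and the trp3 strain at 0.46 and −0.01. The strains lacking the paralogous DAHP synthases both lay higher on the ISU1 array, with 0.22 and −0.30 for aro3 and 0.73 and 0.06 for aro4. The aro8 strain, with 1 feature, lay at 0.15 and 0.10. The 7 aromatic strains had medians of 0.46 and 0.10, the highest of the 5 pathways on both arrays.

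Of the branched-chain strains besides leu9 and leu4, the ilv6 strain lay above the median on both arrays (0.59 and 0.42) and the ilv1 strain below it on both (−0.26 and −0.62), the latter the lowest value of the 27 strains on the SOD2 array. The features of ilv1 there were −0.95 and −0.28.

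Arginine, lysine and histidine strains lay inside 2-fold throughout. In the arginine pathway cpa1 was above the median on both arrays (0.61 and 0.35) with like features, while arg1 (−0.07 and −0.33) and arg4 (−0.20 and −0.26) were below it and arg3 was split (0.10 and −0.33). The ISU1 features of arg4 were −0.76 and 0.36 and those of arg3 were −0.36 and 0.57, so their means there are poorly fixed. In the lysine pathway lys9 was the highest, with 0.43 and 0.72 and features within 0.11 of each other. The strains lacking the paralogous homocitrate synthases lay at −0.34 and −0.01 (lys20) and at 0.05 and −0.17 (lys21), and lys1 (0.25 and 0.01) and lys12 (−0.07 and 0.01) were near the median. Of the 6 histidine strains, 5 were on opposite sides of the median on the 2 arrays. They were his1 (0.38 and −0.29), his2 (0.21 and −0.42), his5 (−0.12 and 0.74), his6 (−0.04 and 0.32) and his7 (0.11 and −0.32). The his4 strain, with 1 feature, lay at 0.80 and 0.13. Over all strains 39.2% were on opposite sides, so a split by itself is common on these arrays.

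**Figure D4:**
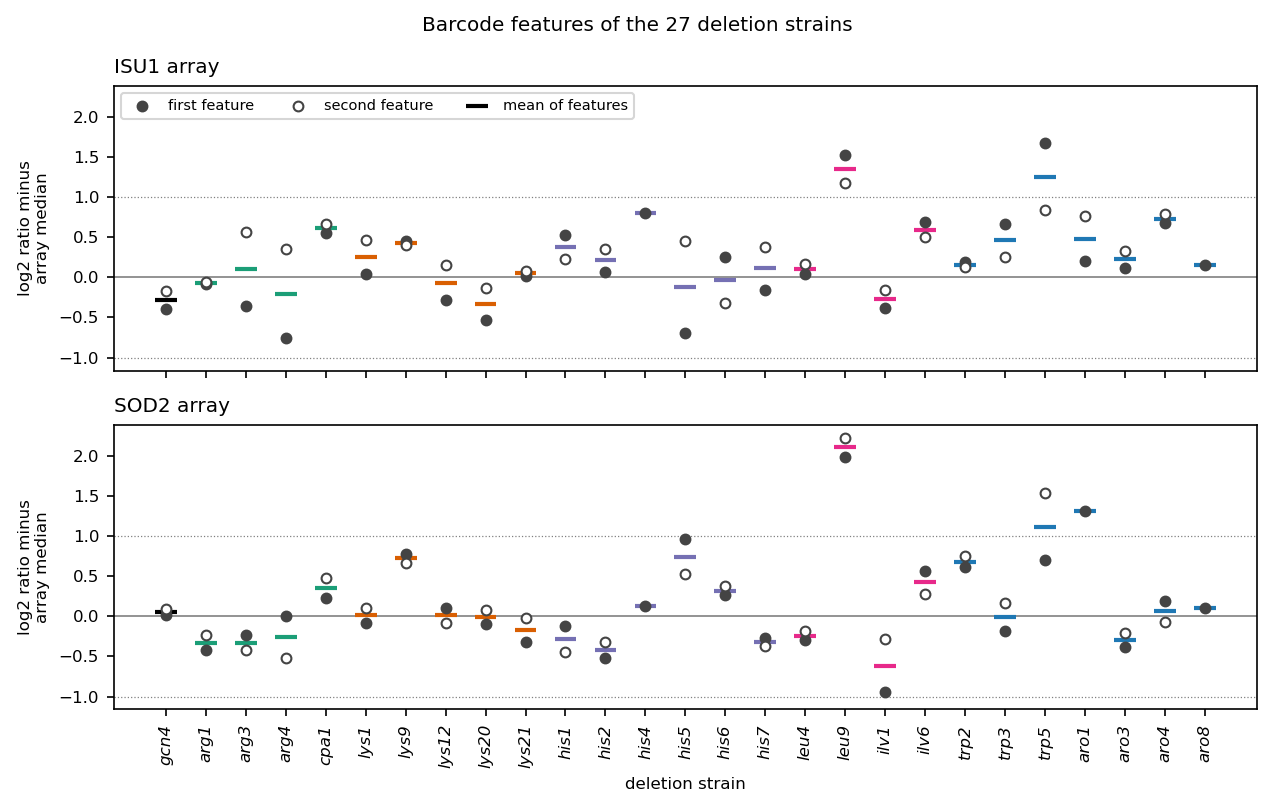
Barcode features of the 27 strains on the ISU1 array (top) and the SOD2 array (bottom), as log2 channel ratio minus the array median; circles are single features, bars their mean coloured by pathway, and dotted lines mark 2-fold. All features of leu9 lie above the dotted line at 1 on both arrays, whereas those of trp5 lie on either side of it.

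Strains lacking other genes of the same control were read from lists that hold none of the 35 genes. None of 22 strains for other amino acid synthesis genes passed 2-fold on both arrays. The pro1 strain, which lacks the first enzyme of proline synthesis, came nearest (0.87 and 1.52), and aro9 had the widest value downwards on the ISU1 array (−0.97, from features of −2.06 and 0.12). Of 4 strains for the translational control of GCN4, 0 passed on both arrays. The gcn2 strain (−0.51 and −0.47) and the gcn3 strain, which lacks the regulatory alpha subunit of eIF2B (−0.68 and −0.89), lay below the median on both arrays without passing 2-fold. The gcn1 strain, with 1 feature on each array, lay on opposite sides (−0.67 and 1.14), and gcn20 lay at −0.32 and −0.08. The Mediator kinase marks Gcn4 for degradation among many other targets. Both strains that lack a part of it passed below the median on both arrays, beside 0.638% of all strains. They lay at −1.77 and −1.24 (ssn3) and at −1.13 and −1.11 (ssn8). The features of ssn8 disagreed, with −0.74 and −1.51 on the ISU1 array and −0.58 and −1.64 on the SOD2 array, so not every feature passed 2-fold. Among 7 strains for pathway regulators, arg82 passed above the median on both arrays (1.30 and 1.70), beside 1.91% of all strains. Arg82 is an inositol polyphosphate kinase with roles well beyond the arginine pathway.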

How the data were processed

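The deposited expression values are on a log2 scale, 1 per probe set. The submitters' processing notes name RMA, a background correction, normalization between arrays and probe summary that would hide a change of the whole transcriptome, and limma, both without versions. Of 10928 probe sets, 5498 name 1 gene of the RefSeq table (R64) and were tested. Barcode values were deposited as linear ratios of the channels, and no source used here states their scaling or direction. They were log2 transformed and centred on the array median, and features with numbers 10971 apart were averaged as belonging to 1 strain, since 3402 of the 3402 such pairs with both names have the same one. The sign was kept as deposited, and the arrays had r = 0.53 over strains. ARG5,6 is ARG56 in the RefSeq table.

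Expression was fitted with limma 3.58.1 (lmFit, eBayes) in R 4.3.3 on genotype alone, 2 arrays against 2, 2-sided, with a threshold of 0.05 after Benjamini-Hochberg adjustment. The number of arrays limits precision. The procedure was tested on simulated data. Barcode arrays were described without a test. All 35 genes are named. From the other lists, genes past the threshold or fold are named, otherwise up to 2 by size. A few others are named for comparison. The genes and lists were chosen with earlier results of these data known. Python 3.11.15 with pandas 2.3.3 and matplotlib 3.10.9 did the rest. No coordinates are given, since the array tables name no build, and no sequences were used. Alternatives tried were other scaling, filters, the variance prior, a replicate block and leaving out arrays.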

Additional observations from a re-analysis of the deposited data

Results flagged for a closer look

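The his1 strain lay on opposite sides of the array medians, each time by more than the SD of a feature. Its value was 0.38 (log2) with the ISU1 cassette, whereas it was −0.29 with the SOD2 cassette. The latter barely exceeded the SD of 0.28, which is that of a single feature, and averaged features of −0.13 and −0.44. The difference was not tested, since each cassette had 1 array, and 39.2% of all strains lay on opposite sides.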

How the results depend on the processing

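With the replicate number of the labels as a block, 1 of the 35 genes was called lower, LEU9 (adjusted p = 0.00992, limma), while 271 of all probe sets were higher and 523 lower. The numbers are not stated to pair the arrays, and same-numbered deviations correlated with r = 0.26 over probe sets. Leaving out 1 array at a time gave 0 to 1 of the 35 genes lower (LEU9 in each case with a call), 52 to 194 of all probe sets higher and 23 to 307 lower, and a median difference of the 35 genes from −0.19 to −0.031. No gene of the 35 was called higher under any alternative, and under further normalization, centring, filtering and an intensity trend none was called lower either. Requiring every feature past 2-fold left 1 strain (leu9) above the median on both arrays. Centring on the mode, strains with 2 features only, equal spread of the arrays and a 1.5-fold limit each left 2. Of the single genes, 13 differences that were not called changed sign under an alternative, 3 of them those of GCN4, mostly without wild type replicate 1. With 2 arrays a genotype, the median SE of the 35 genes was 0.08 (log2), close to the size of most differences.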
